A study of Mus musculus with 3 samples.

Results

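Mural nuclei, the pericytes and vascular smooth muscle cells that wrap blood vessels, were picked out of single-nucleus chromatin accessibility data from the hearts of wild-type mice. A barcode (the tag shared by all fragments of one droplet) counted as a nucleus when chromosomes 1 to 19 and X held 1000 or more of its unique fragments and fragment ends were enriched at transcription start sites (TSSs) by 4 times or more. It was a member when at least 4 of its fragments lay over 11 marker genes (Rgs5, Pdgfrb, Kcnj8, Abcc9, Notch3, Myh11, Vtn, Colec11, Gucy1a1, Gucy1b1 and Ednra, each with 2 kb upstream) and these were at least 4 times as large a share of its fragments as of all vehicle fragments (0.0325%). By this rule 148 of the 6554 nuclei of the vehicle and sunitinib libraries were members, 67 under vehicle and 81 under sunitinib. The series compared wild-type hearts after vehicle, after sunitinib (a kinase inhibitor of VEGF, PDGF and related receptors) and after sunitinib with Yoda1 (an agonist of the mechanosensitive channel Piezo1), with 1 library per group. The library titles also carry 3 months, without saying whether this is an age or a time on treatment; strain, sex, dose and the number of hearts behind each library are not given in the sources used here. Only the accessibility arm of these paired RNA and chromatin libraries was analysed here. The sunitinib plus Yoda1 library had 12 nuclei and 0 members, for which the limit of 3 counts is 25% and the Clopper-Pearson upper bound 26.5%, so it enters no comparison below.

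Pericytes share the basement membrane of capillaries and venules with the endothelium, and smooth muscle cells form the contractile layer of arteries and arterioles. Both depend on PDGF-B released by endothelial cells and sensed through the receptor Pdgfrb, and on Notch3 signalling, and both set vessel tone through calcium entry, the myosin light chain kinase pathway and relaxation by nitric oxide and cyclic GMP. Open chromatin over a gene marks cells in which its regulatory regions can be reached, and is not a measure of its RNA.

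The 67 vehicle members held 250772 fragments and the 81 sunitinib members 276644, out of libraries of 18678009 and 23621828 fragments. A member had a median of 2540 fragments (1133 to 21620) under vehicle and 2911 (1014 to 15517) under sunitinib, against medians of 2138 and 2356 in the other nuclei. Median TSS enrichment of members was 27.8 and 28.1. A total of 22 nuclei had a barcode that was a nucleus in both libraries, and 0 of these were members. With 1 library per group there is no replicate and no test between groups: the 95% intervals given here cover counting error only, and a difference between the libraries cannot be told apart from one between hearts, dissections or library preparations.

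One sunitinib member stood apart. Of its 2957 fragments, 14.4% fell in its 20 densest bins of 100 kb, where the median member had 2.78% and the next highest 7.78%; no vehicle member was above 4.55%. Its TSS enrichment was 4.44 and all 18 of its marker fragments lay over the endothelin receptor gene Ednra. The genes to which it gave a large share of the sunitinib fragments (Ednra, Kcnma1, Grid1, Rsu1, Glis3 and Dcc) are given with and without it.

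Members made up 2.49% of vehicle nuclei (95% Clopper-Pearson interval 1.93 to 3.15%) and 2.10% of sunitinib nuclei (1.67 to 2.60%). The intervals overlap. The sunitinib library also held 433 nuclei that met the same kind of rule for T lymphocyte markers, against 51 under vehicle. With nuclei that met a T or B lymphocyte rule left out of both the members (67 and 77 stayed) and the total, the shares were 2.55% and 2.27%.

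The members were chosen on the 11 markers, so their levels are a description. Summed over the 11 genes, members carried 531 fragments under vehicle and 578 under sunitinib, 7.77 and 8.47 times the level of the other nuclei. Levels are fragments over a gene per 1000000 fragments of the same nuclei (FPM), which depend on gene length and are compared here only for the same gene or list. Abcc9, the sulfonylurea receptor subunit of the vascular KATP channel, had 93 fragments (371 FPM) under vehicle and 118 (427 FPM) under sunitinib. Its channel partner Kcnj8 had 16 and 22. Pdgfrb, the PDGF-B receptor and itself a kinase that sunitinib blocks (mm10 chr18:61045150-61085061), had 105 fragments (419 FPM) under vehicle and 83 under sunitinib. Its levels were 10.8 and 9.65 times those of the other nuclei, which had 39.0 and 31.2 FPM. Rgs5, a brake on G protein signalling typical of pericytes, gave the highest fold over the other nuclei in each library, 20.2 and 15.5.

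**Figure D1:**
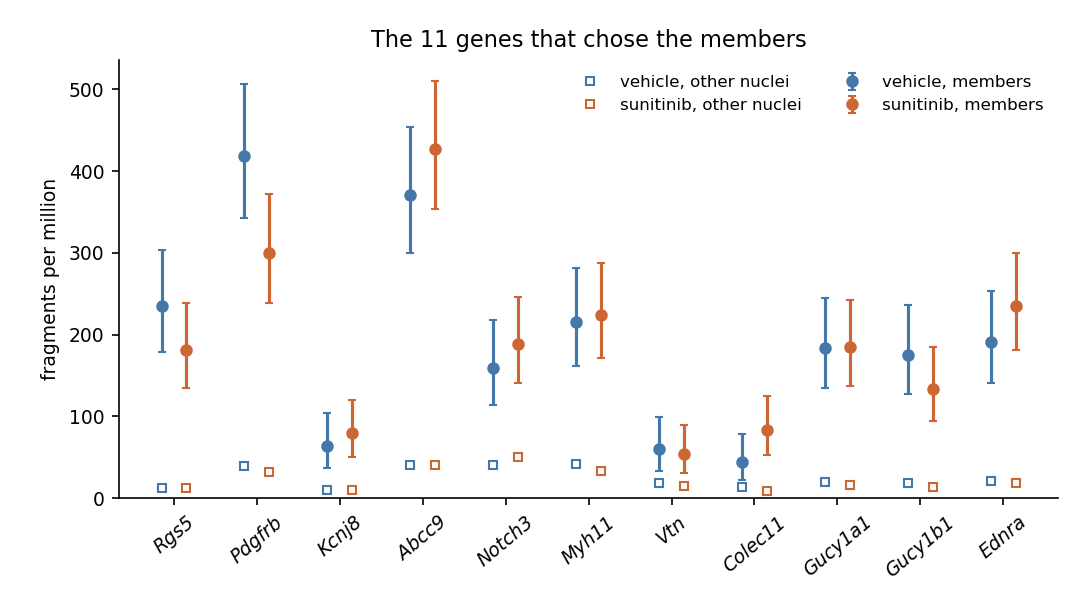
Level (FPM) over each of the 11 genes that chose the members, in members (filled circles, bars are exact 95% Poisson intervals) and in the other nuclei (open squares), for the vehicle and sunitinib libraries. Abcc9 and Pdgfrb are highest; the sunitinib value of Ednra includes 18 fragments of 1 member.

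Sunitinib over vehicle, the summed marker level of members had a log2 ratio of -0.02, and -0.05 without the member that stood apart. The rule used these fragments, so the ratios are given without intervals. Pdgfrb was at -0.48, and the other nuclei had -0.32 at the same gene. Rgs5 was at -0.38. The subunits of soluble guanylate cyclase, the nitric oxide receptor, were at 0.01 for Gucy1a1 and -0.39 for Gucy1b1. Notch3 was at 0.23 and the smooth muscle myosin gene Myh11 at 0.06. Colec11, a collectin, went from 11 to 23 fragments, a ratio of 0.89. Ednra was at 0.29, with 18 of its 65 sunitinib fragments from the member that stood apart; without it Ednra had 47 fragments and was at -0.16.

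The rule's limits ran through a continuum. A total of 21 vehicle and 19 sunitinib members had 4 marker fragments, the minimum, and 29 and 28 further nuclei with 3 marker fragments and a large enough share lay just outside. Another 16 and 20 nuclei had enough fragments and a share of 3 to 4 times, while 11 and 23 members lay at 4 to 5 times.

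Markers that the rule did not use were set against the other nuclei. Their lists were chosen with earlier results of these data known, so they are no independent check of the label. Over 12 further pericyte genes the members had 250 fragments under vehicle and 248 under sunitinib, which is 4.17 times (3.64 to 4.76) and 3.90 times (3.41 to 4.43) the level of the other nuclei. Of the 9 of these genes with at least 20 fragments, 8 were at least 2-fold higher than in the other nuclei in both libraries, against 4.21% of the 7073 genes at that minimum. Higd1b, a mitochondrial protein enriched in pericytes, was 12.8-fold and 18.9-fold higher, from 11 and 13 fragments. Steap4, a metalloreductase, was 7.99-fold and 6.21-fold higher, and Cspg4, the NG2 proteoglycan of pericyte surfaces, 4.79-fold and 4.92-fold. Others were weaker. Ndufa4l2 was 1.74-fold and 2.86-fold higher, and P2ry14 3.46-fold and 2.32-fold. Mcam was 1.51-fold and 1.67-fold higher, from 8 and 10 fragments, below the minimum of 20. Members at the minimum of 4 marker fragments had 930 (661 to 1271) FPM over the pericyte genes under vehicle and 715 (479 to 1026) under sunitinib. Members with 7 or more had 1065 and 941. Nuclei with 3 marker fragments, just outside, had 614 and 392. Nuclei outside by their share alone, at 3 to 4 times, had 439 and 716, the latter level with sunitinib members at the minimum. Nuclei with no marker fragment had 221 and 198.

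The smooth muscle part of the label rested on less. Over 14 further smooth muscle genes the members were 2.03 times (1.79 to 2.29) and 1.87 times (1.63 to 2.12) above the other nuclei, and 3 of the 8 genes with at least 20 fragments were 2-fold higher in both libraries. Defining contractile genes had few fragments. Acta2, smooth muscle actin, had 7 and 8 fragments and was 1.57-fold and 1.31-fold higher. Cnn1, calponin, had 1 fragment in each library. Tagln, transgelin, had 3 and 9 fragments, 0.947 and 2.29 times the level of the other nuclei of the same library. Lmod1, a leiomodin of contractile filaments, was 3.86-fold and 2.93-fold higher, and Cacna1h, a T-type calcium channel, 2.77-fold and 3.06-fold. Kcnmb1, a subunit of the BK potassium channel of smooth muscle, was 10.1-fold and 4.01-fold higher from 6 and 5 fragments. The nuclei are called mural here, by their rule, and no nucleus is called a smooth muscle cell.

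**Figure D2:**
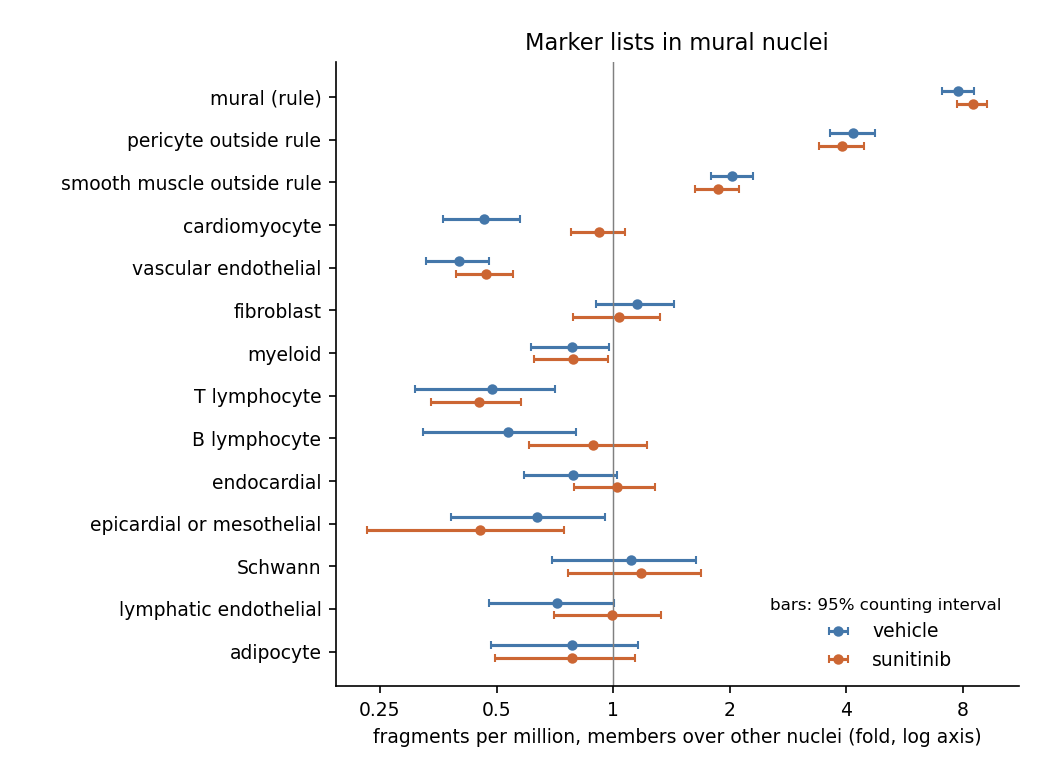
Fold of FPM in mural nuclei over all other nuclei of the same library (log axis) for the rule genes, the pericyte and smooth muscle genes outside the rule and 11 other cell classes; bars are 95% counting intervals. Pericyte genes outside the rule sit near 4-fold and vascular endothelial genes below 0.5-fold in both libraries, while cardiomyocyte genes are at 0.463 under vehicle and 0.919 under sunitinib.

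Genes of neighbouring cell types were mostly at or below the level of the other nuclei. Vascular endothelial genes were at 0.401 and 0.469 times that level, and T lymphocyte genes at 0.487 and 0.45. T lymphocyte genes had 25 fragments in vehicle members and 57 in sunitinib members, a log2 ratio of 1.03 (0.35 to 1.79), where the other nuclei had 1.14. Fibroblast genes were at 1.15 (0.904 to 1.44) and 1.04 (0.79 to 1.32). Over the 10 cardiomyocyte genes members had 77 fragments (307 FPM, 242 to 384) under vehicle and 157 (568 FPM, 482 to 664) under sunitinib, a log2 ratio of 0.88 (0.48 to 1.30), where the other nuclei had -0.11. Under sunitinib 4 members met the cardiomyocyte rule too, against 1 under vehicle, and 13 and 3 met the rule of some other class. The titin gene Ttn had 36 fragments under sunitinib and 5 under vehicle, and Nppa had 0 in both. In sunitinib members with 4, 5 to 6, and 7 or more marker fragments the cardiomyocyte level was 1035, 912 and 291 FPM. In vehicle members of the same bins it was 668, 269 and 220 FPM. The other nuclei had 667 FPM under vehicle and 619 under sunitinib. Droplets with more than one nucleus were not removed; their part in the results was not tested.

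The 15 genes outside the rule ranked highest by fold over the other nuclei (by the lower of both libraries) had folds from 4.20 to 8.80. They follow from which nuclei were chosen and carry no test, and Cspg4 and Heyl among them were already used above as pericyte markers. Several were receptors and signalling genes. S1pr3, a receptor for the lipid sphingosine 1-phosphate, had 24 and 39 fragments (95.7 and 141 FPM; other nuclei 17.8 and 17.6). Pde8b, a phosphodiesterase of cyclic AMP, had 89 and 53, and the phospholipase gene Plce1 had 105 and 106. Gucy1a2, another soluble guanylate cyclase subunit, had 59 and 55 (4.51-fold and 4.31-fold). Slc4a8, a bicarbonate transporter, had 52 and 45, with 20 of the 52 from 1 nucleus. Transcription regulators were Heyl, a Notch target (33 and 39), Hopx, an atypical homeobox protein (26 and 26), and Ebf2 (103 and 107). The rest were the Ras-like gene Rerg (83 and 57), the scaffold gene Lin7a (39 and 32), Vstm4 (62 and 36), the laminin-binding integrin gene Itga7 (20 and 29), the formin-like gene Daam2 (55 and 68) and Cspg4, with 1 further gene not reported here. Of the 15, 3 were past 1.5-fold lower under sunitinib (Rerg, Vstm4 and Pde8b) and 0 higher, where 14.2% and 12.2% of the 7073 genes with at least 20 fragments were.

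Open promoters were searched for sequences of factors known in mural cells. In the RefSeq promoter table of GRCm38.p6 (mm10), which holds 300 bp around each start, 118 protein-coding promoters had at least 8 fragment ends in members and were at least 3-fold above the other nuclei in both libraries. Of the 11 rule genes, 9 had an entry in the table. Rgs5, Gucy1a1, Gucy1b1, Abcc9, Vtn, Colec11 and Notch3 were among the 118, and their fragments helped choose the members. Motif shares given below cover all 118 promoters, these included, and the full 300 bp. The sequences below are the 250 bases before the start, 5′ to 3′ on the gene's strand, of 6 of these promoters chosen after their values were seen: the rule genes Abcc9 and Vtn, and 4 genes of mural receptors, channels and transcription factors outside the rule whose promoter held a motif. Capitals mark RBPJ (GTGGGAA), MEF2, CArG box, TEAD (GGAATG), EBF, AP-1 (TGANTCA) and FOX (TGTTTAC) motifs, searched on either strand and allowed to overlap.
Abcc9, chr6:142702275-142702524, minus strand, 1 TEAD motif: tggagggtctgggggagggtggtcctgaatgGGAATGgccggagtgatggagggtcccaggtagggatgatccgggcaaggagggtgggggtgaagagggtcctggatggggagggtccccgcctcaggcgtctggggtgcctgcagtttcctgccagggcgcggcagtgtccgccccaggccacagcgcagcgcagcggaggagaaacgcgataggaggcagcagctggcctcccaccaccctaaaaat
Vtn, chr11:78498870-78499119, plus strand, 1 TEAD motif: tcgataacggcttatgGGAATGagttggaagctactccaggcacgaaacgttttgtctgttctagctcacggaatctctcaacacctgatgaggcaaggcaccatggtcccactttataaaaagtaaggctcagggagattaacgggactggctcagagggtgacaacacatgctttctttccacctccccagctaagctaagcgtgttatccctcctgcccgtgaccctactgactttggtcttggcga
S1pr3, chr13:51408368-51408617, plus strand, 1 MEF2 motif: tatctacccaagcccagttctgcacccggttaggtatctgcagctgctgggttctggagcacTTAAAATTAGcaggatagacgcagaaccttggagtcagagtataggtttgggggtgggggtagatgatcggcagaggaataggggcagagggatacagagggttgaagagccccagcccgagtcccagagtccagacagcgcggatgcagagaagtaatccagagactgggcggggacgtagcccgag
Hopx, chr5:77115124-77115373, minus strand, 1 CArG box: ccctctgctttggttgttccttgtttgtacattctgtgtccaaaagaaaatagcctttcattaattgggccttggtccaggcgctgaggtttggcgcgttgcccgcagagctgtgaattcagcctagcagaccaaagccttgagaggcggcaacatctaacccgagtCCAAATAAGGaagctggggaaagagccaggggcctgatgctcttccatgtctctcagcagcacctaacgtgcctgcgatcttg
Tbx18, chr9:87731261-87731510, minus strand, 1 RBPJ motif: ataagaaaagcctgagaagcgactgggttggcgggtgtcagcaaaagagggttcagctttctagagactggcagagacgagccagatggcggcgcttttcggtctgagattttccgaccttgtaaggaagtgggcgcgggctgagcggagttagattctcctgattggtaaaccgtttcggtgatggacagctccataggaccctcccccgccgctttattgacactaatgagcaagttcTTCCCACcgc
Ano1, chr7:144738574-144738823, minus strand, 1 RBPJ motif: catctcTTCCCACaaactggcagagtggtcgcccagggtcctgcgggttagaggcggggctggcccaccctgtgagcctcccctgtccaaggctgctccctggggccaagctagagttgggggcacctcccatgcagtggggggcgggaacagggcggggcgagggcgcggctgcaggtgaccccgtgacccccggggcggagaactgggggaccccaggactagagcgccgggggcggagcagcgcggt

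Over the 300 bp, the Abcc9 promoter had 7 ends under vehicle and 10 under sunitinib in members, and 26 and 12 in all other nuclei together. Vtn, vitronectin, had 5 and 10. Tbx18, a T-box factor of epicardial and mural development, had 9 and 10 (17.9 and 18.1 per 1000000 ends; other nuclei 3.89 and 2.22). Hopx had 7 and 3, S1pr3 had 5 and 3, and Ano1, the calcium-activated chloride channel, had 3 and 6. Both ends of 1 fragment can fall in a window, so these are few fragments, and the libraries are not compared here. Among the 118 promoters, a CArG box was found in 2.54%, against 1.18% of the 6505 promoters with at least 8 ends in members and 1.64% of all 32619. The MEF2 motif was in 2.54% against 0.953% and 3.11%, RBPJ in 5.93% against 5.37% and 6.38%, and TEAD in 15.3% against 10.1% and 14.6%. EBF was in 1.69% against 0.83% and 0.907%, AP-1 in 5.08% against 3.52% and 7.85%, and FOX in 3.39% against 2.17% and 3.67%. Of the 118, 3 had a CArG box, 3 MEF2, 7 RBPJ, 18 TEAD, 2 EBF, 6 AP-1 and 4 FOX. The shares of MEF2, RBPJ, AP-1 and FOX lay above those of accessible promoters and below those of all promoters. With so few promoters behind them, a few more or fewer would change this order. The GC-rich SP and KLF motif GGGCGG, left in lower case above, was in 68.6% against 76.0% and 35.9%, and the palindromic NFI motif in 0 against 0.0154% and 0.0368%. Each is a match of letters and does not show binding.

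The windows with the highest fold in members lay mostly away from promoters. Of 3168 windows of 500 bp with at least 20 fragment ends from at least 10 members, outside 10 kb around the rule genes, 167 (5.27%) were at least 4-fold above the other nuclei in both libraries. Of these mural windows 15 (8.98%) lay within 1 kb of a TSS, against 78.2% of all windows. The minimum of ends was set in members, so a window open mainly in members can pass it. The contrast thus follows in part from the filter and is a description. Another 71 lay inside genes and 81 between genes. The first window by fold (mm10 chr7:110985501-110986000, between genes, at -3.29 kb from the start of Mrvi1, which encodes a substrate of cyclic GMP-dependent kinase) had 14 ends under vehicle and 7 under sunitinib in members, and 7 and 6 in all other nuclei together. A window inside Sema6d, which encodes a semaphorin, (chr2:124403501-124404000) had 8 and 16 ends, with 8 and 6 in other nuclei. A window at -23.4 kb from Cmas, between Abcc9 and Cmas (chr6:142733001-142733500), had 12 and 15. Windows near Sept7, Rnft2, Slc6a12, Adra2b, Pcdh18, 4932438A13Rik and Egflam complete the first 10. Outside the 10, and chosen after values were seen, Higd1b had a window at 2.40 kb from its start with 10 and 10 ends. Heyl had one at 4.20 kb with 14 and 14, and the matrix gene Sparc had 3 inside it.

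Sunitinib over vehicle, the 167 mural windows summed to 1962 and 2043 ends, a log2 ratio of -0.08 (-0.17 to 0.01; the interval takes ends as independent). The median of the 167 windows was -0.03, and of all 3168 it was -0.14. Of the 167, 34 were past 1.5-fold lower and 22 higher, where 26.3% and 18.9% of all windows were. Among the first 10 windows 5 were lower and 5 higher, and all 10 intervals included 0. Over the 167, 15 intervals (8.98%) excluded 0, against 12.9% of all 3168 windows. Without members that met another class's rule the summed ratio was 0.04 (-0.06 to 0.13).

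Members were then placed between a pericyte and a smooth muscle end. For each, fragments over 9 smooth muscle genes (Myh11, Acta2, Tagln, Cnn1, Lmod1, Itga8, Npnt, Aoc3 and Ntf3) were divided by those plus the fragments over 9 pericyte genes (Kcnj8, Abcc9, Vtn, Colec11, Higd1b, Ndufa4l2, Steap4, P2ry14 and Cspg4). Of these, Myh11, Kcnj8, Abcc9, Vtn and Colec11 are also rule genes, so their fragments helped choose the members. The side is a range and not a type. A side was given to 51 vehicle and 64 sunitinib members with at least 3 such fragments, cut at the pooled share of 38.5%. The smooth muscle side held 22 vehicle members, 43.1% (29.3 to 57.8%), and 31 sunitinib members, 48.4% (35.8 to 61.3%). The intervals overlap, but they cover only the counting of members chosen in part on these genes. Summed over all members, the smooth muscle share of these fragments went the other way, 41.2% under vehicle (170 smooth muscle and 243 pericyte fragments) and 36.1% under sunitinib (163 and 288). The 14 smooth muscle genes outside the rule summed to a log2 ratio of -0.29 (-0.55 to -0.04), sunitinib over vehicle, where the other nuclei had -0.17. Within 0.1 of the cut as a fraction lay 21 and 18 members. At the ends of the range, 9 vehicle and 9 sunitinib members had a share of 0, and 1 and 2 a share of 1.

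**Figure D3:**
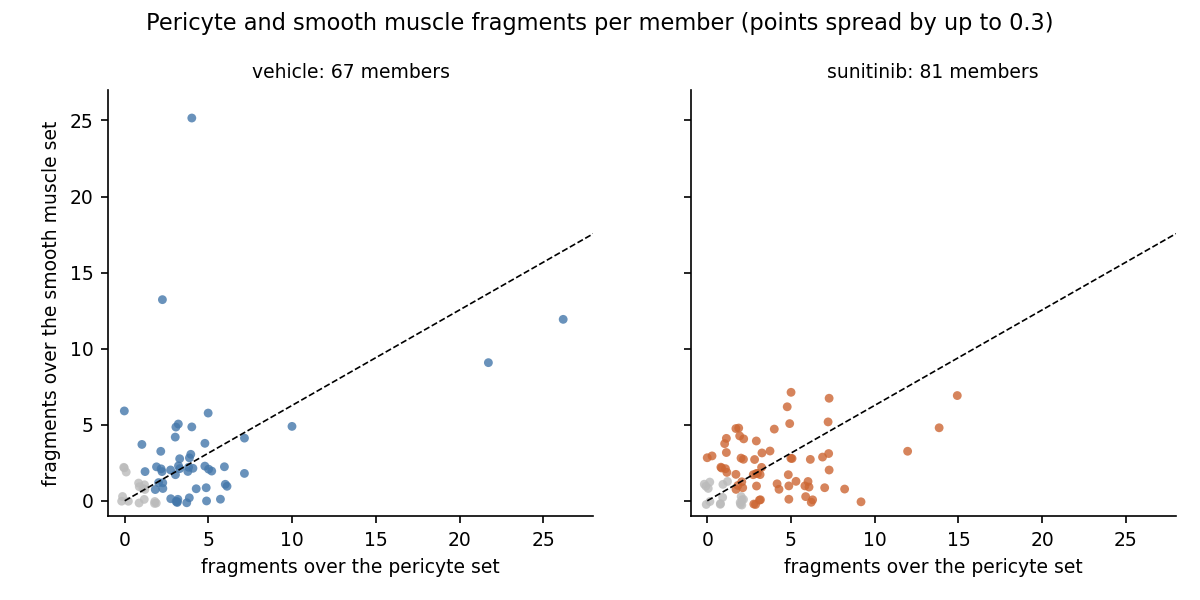
Fragments over the 9 pericyte genes (x) and the 9 smooth muscle genes (y) in each of 67 vehicle and 81 sunitinib members; the dashed line is the pooled share of 38.5% and grey points have under 3 fragments. Members spread over both sides of the line without a gap.

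Genes outside both sets and the rule, named for the largest difference between the sides, are a description of these members. Prdm16, a zinc finger regulator known in arterial smooth muscle and endothelium, had 45 fragments in members of the smooth muscle side and 13 in those of the pericyte side. Its log2 ratio, smooth muscle over pericyte side, was 1.98 among vehicle and 1.97 among sunitinib members. Hlf, a PAR bZIP factor, had 30 and 10, and Dpp6, Ccser1 and Rubcn followed. On the pericyte side were Grb10, an adaptor of receptor kinases, with 10 and 38 fragments (-1.63), and the basement membrane gene Nid1 with 14 and 49 (-1.52). Ncor1, Bmp5 and Herpud2 followed. They were picked from 1848 genes. Of the smooth muscle markers outside both sets with at least 20 fragments, Mylk, the myosin light chain kinase, was at 0.48, Cacna1h at 0.11, Smtn at 0.052 and Myocd at -0.061. Among the pericyte markers outside both sets, Pde5a was at 0.25 and Heyl at 0.030. From fewer fragments, Cox4i2 was at 0.39, Mcam at -0.30, and Rgs4 and Foxs1 at -0.40 each. A further pericyte marker, not reported here, lay on the pericyte side.

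Sunitinib over vehicle, few of the genes with enough fragments in members to be measured were past 1.5-fold. To be measured, an autosomal protein-coding gene needed 60 fragments in members of the 2 libraries together and an expected count of 20 in each; 1184 genes met this. Of these 40 (3.38%) were at least 1.5-fold higher and 57 (4.81%) at least 1.5-fold lower under sunitinib, and the median log2 ratio was -0.06. With each ratio divided instead by fragments within 1 kb of TSSs, 58 were higher and 46 lower. Which direction held more genes turned with the scaling. The shares also depended on the minimum: of the 7073 genes with at least 20 fragments, 12.2% were past 1.5-fold higher and 14.2% lower.

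The 12 lowest genes ran from -1.26 to -0.88, and 10 of them are named here: Map3k3, Ift140, Ptpn12, Acoxl, Stim2, Mcc, Cblb, Vstm4, Mxra7 and Pde8b. Map3k3, a MAP kinase kinase kinase that acts upstream of the ERK5 pathway (chr11:106084613-106155446), had 44 fragments in 26 vehicle members (175 FPM) and 20 in 18 sunitinib members (72.3 FPM). Its ratio was -1.26 (-2.12 to -0.49), against -0.09 in the other nuclei. Stim2, an endoplasmic reticulum calcium sensor, had 41 and 22, -1.02 (-1.86 to -0.26). Pde8b went from 89 fragments in 41 members to 53 in 28, -0.88 (-1.41 to -0.38), where the other nuclei had -0.35. Acoxl rests on 1 nucleus, which gave 50 of its 78 vehicle fragments. Within 1 kb of the TSSs all 12 were lower as well, but these fragments overlap with those that picked the genes. In the other nuclei 9 of the 12 were lower, and the share of all genes lower there is not given here.

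The 12 highest genes were Grid1, Rsu1, Glis3, Dcc, Ank, Dapk2, Ryr2, Kif6, Adam22, Tenm2, Fras1 and Heg1, from 1.96 to 0.90. The sunitinib member with dense fragments weighed on the first 4, giving 36 of the 53 sunitinib fragments of Grid1, 41 of 73 of Rsu1, 23 of 54 of Glis3 and 58 of 75 of Dcc. Without it Grid1 was at 0.36, Rsu1 at 0.54 and Dcc at -0.67. Glis3, at 0.72, and the other 8 stayed past 1.5-fold higher without it. Ank, a pyrophosphate transporter that limits vascular calcification (chr15:27466677-27594909), had 16 fragments in 14 vehicle members and 45 in 33 sunitinib members. Its ratio was 1.32 (0.50 to 2.27), and -0.17 in the other nuclei. Dapk2, a death-associated kinase (chr9:66158223-66272242), had 16 and 44 fragments, 1.29 (0.46 to 2.24). Heg1, a receptor of endothelial junctions, had 24 and 50, 0.90 (0.19 to 1.68). Ryr2, the calcium release channel, had 21 and 56, 1.25 (0.53 to 2.07), but it is also 1 of the cardiomyocyte markers that were higher in sunitinib members. Without members that met another class's rule, Ryr2 was at 0.51. Within 1 kb of the TSSs 10 of the 12 had fragments, and 7 of these were higher. In the other nuclei 1 of the 12 was higher, again without the share over all genes beside it.

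**Figure D4:**
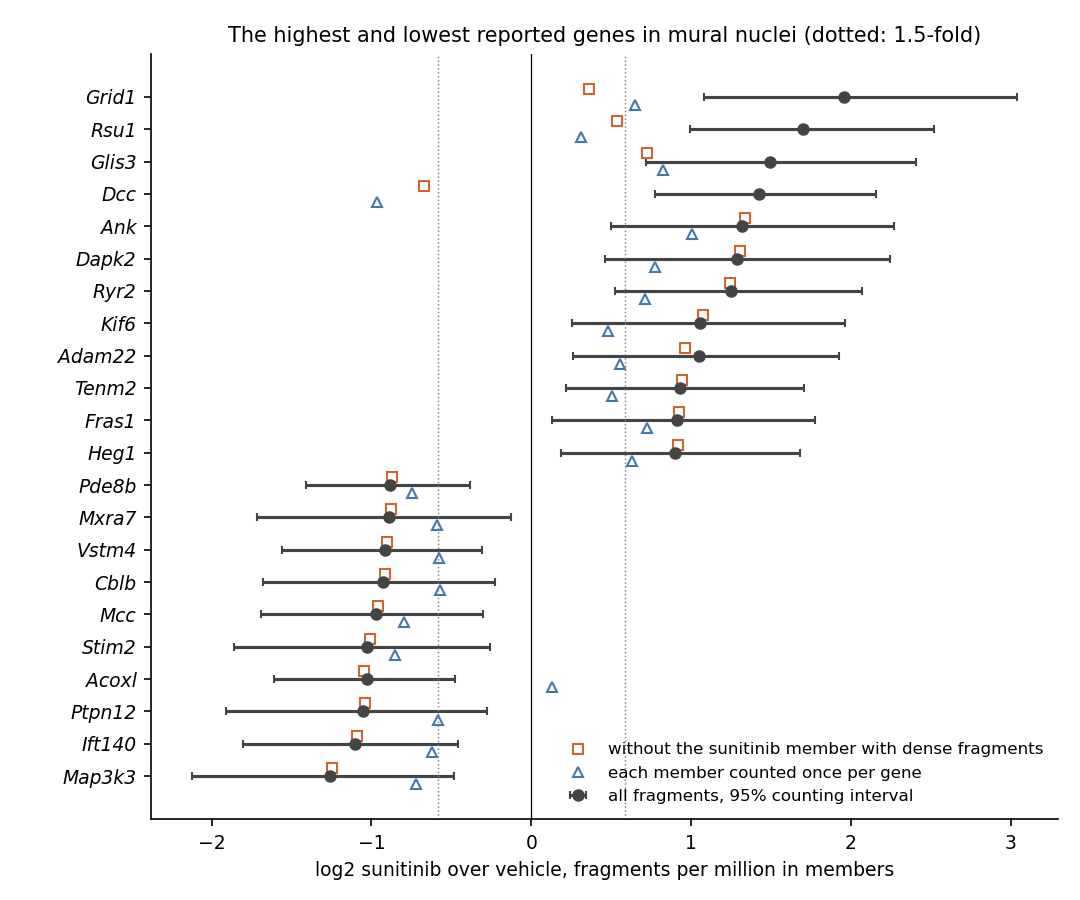
Log2 ratio of FPM, sunitinib over vehicle, in mural nuclei for the 12 highest and 10 of the 12 lowest measured genes (circles with 95% counting intervals), without the sunitinib member with dense fragments (squares) and with each member counted once per gene (triangles); dotted lines mark 1.5-fold. Dcc changes sign without that member, and Acoxl when each member counts once, while Ank stays past 1.5-fold in all 3.

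The intervals treat fragments of 1 nucleus as independent, so they are too narrow where a few nuclei give many fragments. With each member counted at most once per gene, 11 of the 12 lowest kept their direction and 7 stayed past 1.5-fold, and the same counts held for the 12 highest.

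The gene lists were read against all 7073 genes with at least 20 fragments, of which 12.2% were past 1.5-fold higher, 14.2% past it lower and 46.3% higher at all, with a median of -0.03. In the lists a gene is called measured at this lower minimum of 20 fragments. The contractile apparatus had 10 such genes of 15, with 0 past 1.5-fold higher and 3 lower (Itga8, Tpm1 and Lmod1), and a median of -0.32. Its summed fragments were 417 and 387, a ratio of -0.25 (-0.45 to -0.05), where the other nuclei had -0.20. The actin-binding caldesmon gene Cald1 had 115 and 94 fragments, -0.43 (-0.84 to -0.03), but 5 and 12 within 1 kb of its TSSs, where it was at 1.04. Mylk had 89 and 76, -0.37 (-0.83 to 0.09), while tropomyosin genes lay on both sides of 0, Tpm1 at -0.69 and Tpm2 at 0.41. With each member counted once per gene the summed ratio was -0.05. In the upstream contraction signalling list 15 of 17 genes were measured, 2 past 1.5-fold higher and 1 lower, with a summed ratio of 0.05 (-0.10 to 0.21). There the phospholipase gene Plcb4 was at 0.19, the inositol trisphosphate receptor Itpr1 at -0.26 and the protein kinase C gene Prkca at 0.39. Near their TSSs Plcb4 was at -0.96 and Itpr1 at 0.79, from 11 and 6 and from 5 and 10 fragments.

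Channel and receptor genes varied within their lists. Cacna1c, the pore of the L-type calcium channel, had 183 fragments in 59 vehicle members and 214 in 67 sunitinib members, a ratio of 0.08 (-0.21 to 0.38). Its level in members was 2.29 and 2.80 times that of the other nuclei. The exchanger gene Slc8a1 had 75 and 75 and the channel subunit Cacnb2 60 and 65. Kcnma1, the BK potassium channel, was at 0.71, with 37 of 76 sunitinib fragments from the member that stood apart, and at -0.23 without it. Of 16 measured channel genes 3 were past 1.5-fold higher and 1 lower. Piezo1, the target of Yoda1, had 22 and 23 fragments, -0.08 (-0.99 to 0.83), and was less accessible in members than in other nuclei, 87.7 against 133 FPM under vehicle. Vasoactive receptors had 9 measured genes of 19, 1 past 1.5-fold higher and 1 lower. There the nucleotide-sugar receptor P2ry14 had 22 and 20 fragments, the CGRP receptor component Calcrl 14 and 26, and the adenosine receptor Adora2a 20 and 19.

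The cyclic GMP list had the highest fold over other nuclei of the 17 lists, at 2.69 times (2.47 to 2.92) and 2.61 times (2.39 to 2.83) the other nuclei. Prkg1, cyclic GMP-dependent protein kinase, had 228 fragments in 60 vehicle members and 212 in 66 sunitinib members, -0.25 (-0.52 to 0.03). Pde3a had 96 and 101, and Mrvi1 56 and 71. Summed, the list was at -0.15 (-0.31 to 0.02), with 2 of 9 genes past 1.5-fold higher (the phosphodiesterase genes Pde1c and Pde3b) and 0 lower.

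Of the 8 kinases counted as sunitinib targets outside the rule, 4 had at least 20 fragments, and the summed target level was 0.508 and 0.548 times that of the other nuclei. Pdgfra, the PDGF receptor of fibroblasts (chr5:75152292-75198215), had 16 fragments in 13 vehicle members and 6 in 6 sunitinib members, -1.49 (-3.20 to -0.13); it is also 1 of the fibroblast markers, whose sum was 79 and 63 fragments, -0.47 (-0.97 to 0.03). The VEGF receptor genes Kdr (16 and 16), Flt1 (18 and 21) and Flt4 (8 and 12) had intervals that included 0, as had Kit (3 and 9), Flt3 (2 and 8), Csf1r (2 and 6) and Ret (8 and 3). The PDGF list was 1.30 and 1.23 times the level of the other nuclei. In it the co-receptor genes Lrp1 (67 and 75) and Nrp1 (63 and 69) were near 0, and 3 of 7 measured genes were past 1.5-fold lower, Pdgfra, the ligand gene Pdgfb and the phosphatase gene Ptpn11. With each member counted once Ptpn11 was at 0.03.

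Among ligand, receptor and junction genes exchanged with the endothelium, 9 of 12 measured genes were higher and 2 past 1.5-fold, with a median of 0.37 and a summed ratio of 0.24 (-0.03 to 0.51). The other nuclei were at -0.11. Cdh2, N-cadherin of the pericyte-endothelial contact, went the other way, 56 and 42 fragments, -0.55 (-1.17 to 0.05), and S1pr3 was at 0.55 (-0.21 to 1.36). Angpt1, the Tie2 ligand that pericytes make (chr15:42424723-42676977), had 3 fragments in 3 vehicle members and 20 in 16 sunitinib members. Its ratio of 2.41 (0.84 to 4.99) was the largest of any gene measured in the 17 lists, and it was singled out after its value was seen. None of its fragments lay within 1 kb of a TSS. Its level under sunitinib, 72.3 FPM, was close to that of the other nuclei, 73.2, while the other vehicle nuclei had 60.7.

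Notch genes showed 1 of 14 past 1.5-fold in each direction and a summed ratio of -0.05 (-0.22 to 0.12), with the coactivators Maml3 (121 and 132 fragments) at -0.02 and Maml2 (93 and 107) at 0.06. The DNA-binding partner Rbpj (58 and 48) was at -0.41. TGF-beta and BMP genes had 1 of 16 past 1.5-fold higher and 3 lower, and a summed ratio of -0.22 (-0.41 to -0.03), against -0.08 in the other nuclei. The leading genes were the co-receptor Tgfbr3 (63 and 51, at -0.44), Smad3 (44 and 50, at 0.04), Ltbp1 (-0.02) and Tgfbr2 (0.03). The ligand gene Tgfb2 had 26 and 14 fragments, -1.01 (-2.09 to -0.04), and was singled out after its value was seen.

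Of the mural transcription factors 17 of 22 measured genes were lower, with 2 past 1.5-fold in each direction. The median was -0.15 and the summed ratio -0.13 (-0.25 to 0.00), against -0.11 in the other nuclei. Ebf1 had 153 and 129 fragments, -0.39 (-0.74 to -0.04; 0.065 near its TSSs, from 6 and 7 fragments), and its relative Ebf2 103 and 107, -0.09. Nfia had 121 and 114 and Nfib 114 and 112. Mrtfa, an actin-regulated partner of SRF singled out after its value was seen, was the other way, 46 and 77 fragments, 0.60 (0.06 to 1.16). Its partner Mrtfb had 41 and 40 and the smooth muscle coactivator Myocd 13 and 16. YAP and TEAD genes had 9 of 11 lower, 0 past 1.5-fold in either direction, and a summed ratio of -0.23 (-0.44 to -0.02), with the other nuclei at -0.25. Their leading genes were Arhgef17 (78 and 77), Tead1 (63 and 55) and Wwtr1 (42 and 37).

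Matrix and integrin genes had 3 of 21 past 1.5-fold higher and 2 lower, with a summed ratio of 0.02 (-0.12 to 0.15) where the other nuclei were at -0.25. The basement membrane collagens Col4a1 (85 and 110) and Col4a2 (88 and 117), whose counted regions share the stretch between their starts, were at 0.23 and 0.27, and the fibrillin gene Fbn1 at -0.34 (-0.76 to 0.07; 0.34 near its TSSs, from 7 and 10 fragments). Hypoxia genes had 0 of 8 past 1.5-fold, with Epas1 at 59 and 74 fragments and Pfkfb3 at 31 and 47. Mitochondrial and energy genes had 2 of 14 in each direction. The estrogen-related receptor gene Esrrg, also singled out after its value was seen, was at -1.25 (-2.61 to -0.09). The coactivator Ppargc1b, open in members at 2.72 and 2.71 times the other nuclei, was at -0.04. Inflammatory and immediate early genes had 1 of 9 past 1.5-fold lower (Socs3) and 0 higher, and cell cycle genes 1 of 6 lower (Cdkn1a) and 0 higher.

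**Figure D5:**
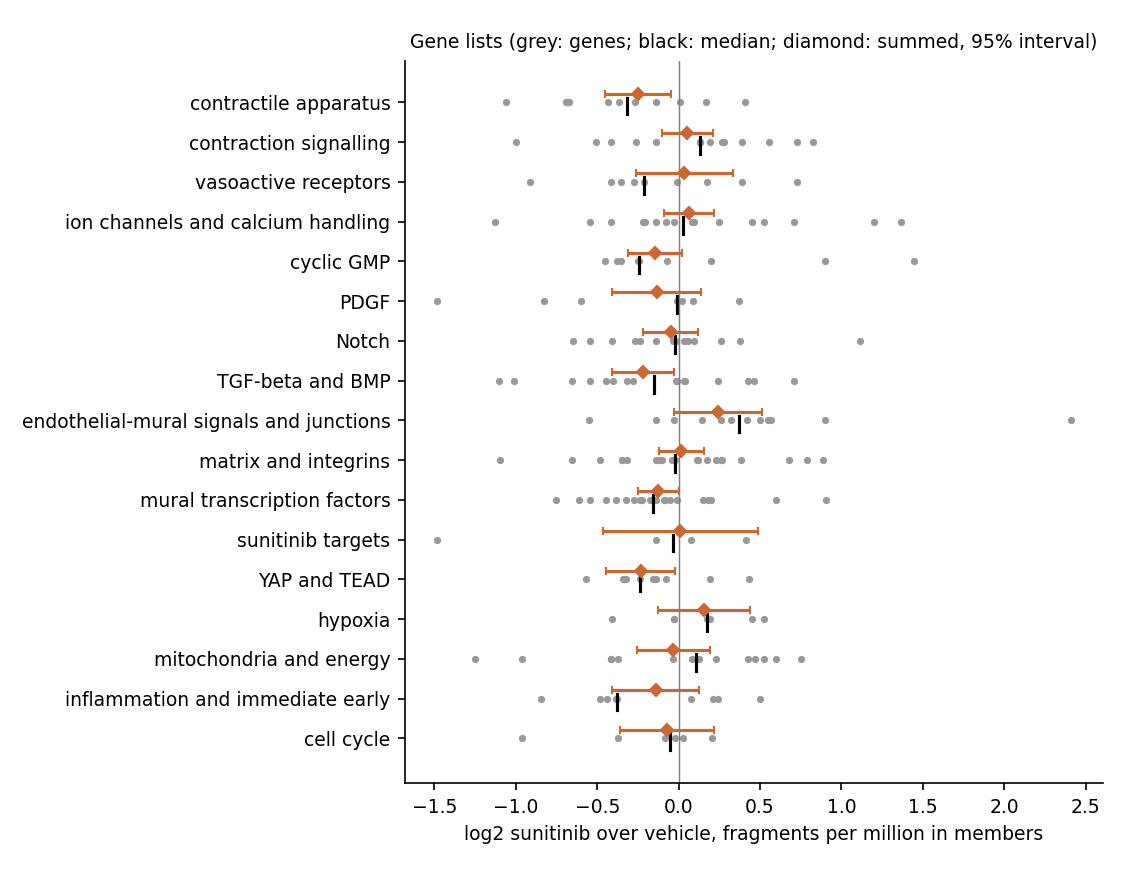
Log2 ratio of FPM, sunitinib over vehicle, in mural nuclei for 17 gene lists: grey points are genes with at least 20 fragments, black ticks list medians, and diamonds summed ratios with 95% counting intervals. The summed ratio lies below 0 with its interval for the contractile apparatus, TGF-beta and BMP, and YAP and TEAD lists, and the outlying point at 2.41 is Angpt1.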

How the data were processed

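Single-nucleus ATAC fragments of 3 mouse heart libraries were used. Per the file headers, the authors made them with cellranger-arc on mm10, version 2.0.0 for vehicle and sunitinib and 2.0.2 for sunitinib plus Yoda1. Each deposited line is a unique fragment with its barcode and the count of reads that gave it, not normalized; every line was used as 1 fragment. Per the submitters' processing notes, Cell Ranger and Signac were used.

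Genes were GENCODE vM21 bodies plus 2 kb upstream. Fragments of members were summed per library and divided by their total. For log2 ratios 0.5 was added to both counts, and their 95% intervals are exact, conditional on the sum of both counts. Levels have exact Poisson and shares Clopper-Pearson intervals. Mkl1 and Mkl2 were matched as Mrtfa and Mrtfb by RefSeq synonyms. Genes named were the rule markers, the 12 highest and lowest measured genes, the 15 leading genes, leading genes of each list, the sunitinib targets and Piezo1, the first 10 windows and 5 genes per side. Further list genes, among them Angpt1, Tgfb2, Mrtfa and Esrrg, were named with their values known. Members and lists were chosen with earlier results of these data known. Analyses used Python 3.11.15, numpy 2.4.6, pandas 2.3.3 and scipy 1.17.1, and were tested on simulated data. Motifs in windows were not analysed here, as no genome sequence was used. The promoter sequences are from RefSeq. The alternatives changed nucleus, member, length and scaling criteria. A few genes that these rules pick are not reported here.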

Additional observations from a re-analysis of the deposited data

How the results depend on the processing

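No paired analysis was possible because each group had 1 library. The limits are the single library per group and the few fragments per gene. A measured gene had at least 60 fragments in the counts of higher and lower genes, but at least 20 in the gene lists. At either minimum 1.5-fold was within counting error for many genes. Most counts moved with the number of fragments kept.

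With barcodes of at least 3000 fragments the vehicle share was 3.59% and 28 genes were lower. With at least 6 marker fragments the shares were 1.22% and 1.14% and 37 genes were lower. With a marker share of 8 times (15 and 27 members) they were 0.556% and 0.700%, the vehicle smooth muscle side was 25%, and 3 genes were higher and 1 lower. Without members meeting another class's rule, the windows summed to 0.037. Without the 5% of members with most fragments 37 genes were lower. A side cut of 0.5 gave 21.6% and 29.7%. Higher and lower genes numbered 1 and 4 with members thinned to 1000 fragments, 6 and 8 with only fragments of subnucleosomal length, 2 and 7 at a minimum of 120, 366 and 434 at 30, and 9 and 7 at 2-fold. Counting each member once per gene, an alternative chosen after seeing the data, gave 5 and 2; fewer genes then reached the minimum.

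Over up to 124 gene ratios of any size, between 0 and 38 changed sign by setting, with 38 of 119 within 1 kb of TSSs and 37 of 123 with thinned members. Angpt1, Tgfb2, Mrtfa and Esrrg, like many other list genes, were not put through the settings. Among the genes and lists that were, the ratios past 1.5-fold that changed sign were these. Dcc was at -0.73 with 3000 fragments and with TSS enrichment of 7, -0.96 with members counted once and -0.67 without the member with dense fragments (also chosen after seeing the data). Kcnma1 was at -0.33, -0.20 and -0.23 under the first, second and last of these. At a marker share of 8 times, cardiomyocyte and T lymphocyte genes were at -0.66 and -0.66, Ift140 at 0.56, Acoxl at 0.27, Rerg at 0.079 and Aoc3 at 2.80. Thinned, Ptpn12 was at 0.17, Tenm2 at -0.27, Aoc3 at 2.05 and Cdkn1a at 0.21. Within 1 kb of TSSs, Rsu1 was at -0.14, Ryr2 at -1.36 and Fras1 at -0.50. Counted once, Acoxl was at 0.13, Rerg at 0.052 and Ptpn11 at 0.028. A nucleosome-length ratio under 4 removed 0 members.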
